A study of Mus musculus with 24 samples.

Results

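The 10 genes described here encode ligands and receptors of the GDNF family and of the neurotrophins: the ligands Gdnf, Nrtn and Artn, the co-receptors Gfra1, Gfra2, Gfra3 and Gfra4, the receptor tyrosine kinase Ret, and the neurotrophin receptors Ngfr and Ntrk2. They were taken by symbol from the 41549 genes of the deposited mouse islet RNA-seq table. The rule uses no measured value, but the genes were picked with earlier results of these data known. All 10 passed the filter on low counts and were among the 15916 genes tested.

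Islets of wild-type mice were dispersed into single cells, transfected with 50 pmol of a control antisense oligonucleotide (Ctr ASO) or of an ASO against 5′tRF-Glu(CTC), a fragment of the glutamate tRNA (αGlu ASO), and cultured for 48 h. The medium held either 0.5 mM palmitate (PA), a saturated fatty acid carried on bovine serum albumin, or 0.75% of the albumin alone (BSA). Each ASO with each medium gave 4 groups of 6 libraries (Ctr BSA, αGlu BSA, Ctr PA, αGlu PA), which all carry a transfected oligonucleotide and all received albumin. The methods list wild-type C57BL/6NRj mice of both sexes, aged 12 to 14 weeks, without saying which mice gave these libraries, and they describe replicates of primary cells as coming from different animals, with all groups of a replicate from the same animal. The labels do not tell which libraries share an animal. Each group had 3 libraries in batch 1 (S1 to S12) and 3 in batch 2 (S13 to S24), and nothing in the labels tells what separates the batches. Libraries held 18214719 to 35001979 counts each. The cells were neither sorted nor separated by type, so a library sums the RNA of endocrine and of all other cells in the dispersed islets. Fewer cells of a type and less RNA per cell cannot be told apart in such data.

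GDNF-family ligands bind a GFRα co-receptor that is anchored to the cell surface, and the pair then activates RET, a tyrosine kinase that signals through RAS-ERK, PI3K and PLCγ. GFRα1 is the preferred partner of GDNF, GFRα2 of neurturin (Nrtn), GFRα3 of artemin (Artn) and GFRα4 of persephin. The neurotrophins, among them BDNF and NT-4, all bind p75 (Ngfr), a receptor without kinase activity, while TrkB (Ntrk2) is the kinase receptor of BDNF and NT-4. In the pancreas these factors are known from the autonomic nerves and the Schwann cells that surround and enter the islets, and p75 is a common label of Schwann and neural crest cells.

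The sequences that define the treatment and RefSeq promoter windows of the genes that differed between ASOs are shown first. The αGlu ASO is a locked nucleic acid inhibitor of 20 bases, and its target is listed with 21 bases, of which capitals mark the 20 that pair with it. Over the annotated GENCODE transcripts of the 10 genes, the longest uninterrupted run that could pair with the ASO was 11 bases, in Ret, a length that 1.03% of 15635 tested genes with a transcript reached. It was 9 bases in Artn and Ntrk2, a length reached by 19.6% of those genes, and 8 in Gdnf, Nrtn, Gfra1, Gfra2 and Gfra4, reached by 55.7%. In Gfra3 it was 7 bases and in Ngfr 6.
αGlu ASO: TAACCACTAGACCACCAGGG
target: tCCCTGGTGGTCTAGTGGTTA

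The RefSeq promoter windows of Gdnf and Ngfr, 300 bases each on GRCm38.p6, are printed because these 2 genes carry the differences between ASOs given later. Gdnf lies on chromosome 15, from 7810846 to 7837575 on the plus strand of GRCm38, and Ngfr on chromosome 11, from 95568818 to 95587735 on the minus strand. The Gdnf window is chr15:7809798-7810097, the first of 2 listed for the gene, and the Ngfr window is chr11:95587649-95587948. Capitals mark matches to the motifs searched, on either strand, of which the first was the GC box, spelled GGGCGG. The TATA box was searched as TATAAA. For SOX-type factors, the letters ACAAAG were searched first. A variant of them, ACAATG, was searched as well, and no matches overlapped. The Gdnf window held 1 TATA box, a motif in 13.6% of 32851 windows of this length, and had a GC content of 51.7%. It ends before the GENCODE gene start given above, and the second Gdnf window, chr15:7813477-7813776, held none of the motifs. The Ngfr window held 4 GC boxes, which do not overlap, a motif present in 35.7% of windows, and had a GC content of 71.7%. Neither window held the letters of a SOX-type motif, which 18.7% (ACAAAG) and 12.6% (ACAATG) of windows held.
Gdnf: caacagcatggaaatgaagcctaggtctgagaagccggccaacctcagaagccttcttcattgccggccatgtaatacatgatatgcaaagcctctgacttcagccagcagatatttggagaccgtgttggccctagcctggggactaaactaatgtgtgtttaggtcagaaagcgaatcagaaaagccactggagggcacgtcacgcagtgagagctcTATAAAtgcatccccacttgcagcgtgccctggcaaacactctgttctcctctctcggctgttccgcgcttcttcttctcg
Ngfr: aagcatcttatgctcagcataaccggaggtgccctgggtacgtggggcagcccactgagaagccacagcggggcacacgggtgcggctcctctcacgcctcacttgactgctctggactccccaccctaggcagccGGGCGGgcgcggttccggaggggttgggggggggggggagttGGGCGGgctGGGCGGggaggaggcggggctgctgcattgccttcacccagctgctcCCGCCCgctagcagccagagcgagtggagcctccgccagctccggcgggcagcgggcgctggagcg

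By level per length, the receptor kinases led and the ligands and their co-receptors followed at a distance. Levels are given here as TPM, the authors' a length-scaled level, which allow genes to be ranked against each other. Ret reached 74.3 ± 9.91 TPM (SD, n = 24 libraries), above 91.4% of the tested genes, and Ntrk2 36.1 ± 7.13 TPM. The co-receptor Gfra3 followed at 15.5 ± 3.30 TPM. In each of the 24 libraries Ret was above Ntrk2, Ntrk2 above Gfra3, and Gfra3 above Nrtn.

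Below them the order was less firm. Nrtn averaged 7.31 ± 2.19 TPM and Ngfr 6.85 ± 9.25 TPM, and Nrtn was the higher of the 2 in 17 of 24 libraries. Ngfr alone spanned 0.213 to 33.8 TPM, and it exceeded Gfra1, at 2.49 ± 0.963 TPM, in 13 libraries. Gdnf (0.794 ± 0.983 TPM), Artn (0.664 ± 0.376 TPM), Gfra4 (0.468 ± 0.228 TPM) and Gfra2 (0.300 ± 0.352 TPM) made up the lowest tier. Gdnf was above Artn in only 9 libraries, so the means of these neighbours did not set an order beyond their spread. Counts of 0 were seen for Gdnf in 1 library, for Gfra4 in 1 and for Gfra2 in 3.

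**Figure D1:**
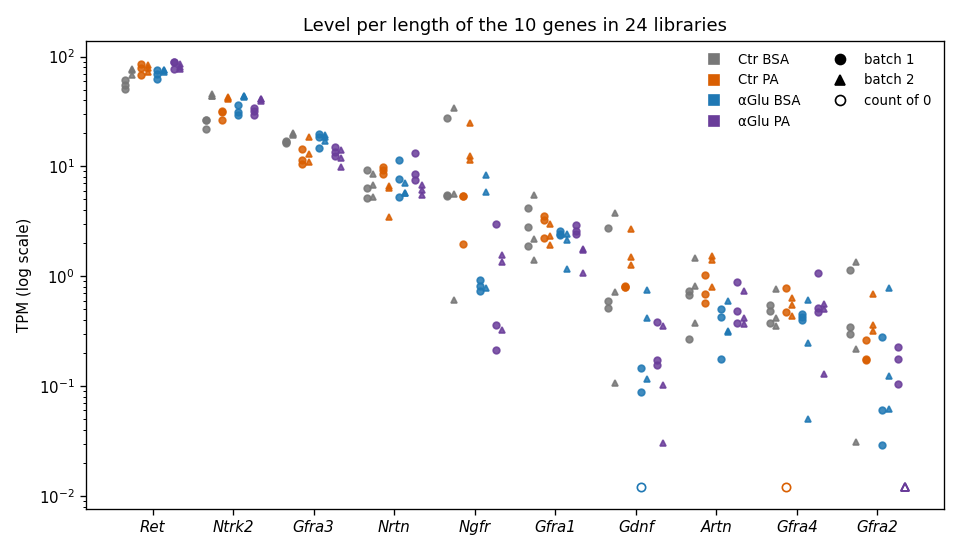
Level of each gene per length (TPM, log axis) in the 24 libraries, genes ordered by mean, coloured by group, with circles for batch 1 and triangles for batch 2; open symbols at the bottom are counts of 0, and the 3 for Gfra2 lie on each other. Ret (50.3 to 89.4 TPM) stayed within a narrow band, whereas Ngfr ran from 0.213 to 33.8 TPM with its lowest value in αGlu PA.

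The islet identity of the libraries was plain from the endocrine genes: the 10 beta-cell markers, led by Ins1 and Ins2, summed to 84084 to 152138 CPM. CPM is the count scaled to the library's effective size (TMM), the scale used from here on to compare libraries for 1 gene. Other cells were present too. The 8 acinar markers, with Ctrb1 the most abundant, summed to 221 to 22173 CPM, and the 12 fibroblast and stellate markers to 13.9 to 1386 CPM. Neuronal markers Phox2a, Chat and Vip had no count in most libraries, with counts in 6, 7 and 4 of 24.

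On GRCm38 the family is scattered over the genome, each gene on a chromosome of its own. Nrtn lies on chromosome 17 from 56751325 to 56757530 and Artn on chromosome 4 from 117926162 to 117929763, both on the minus strand. Of the co-receptors, Gfra1 lies on chromosome 19 from 58235604 to 58455909 (minus), Gfra2 on chromosome 14 from 70890120 to 70979838 (plus), Gfra3 on chromosome 18 from 34689898 to 34720387 (minus) and Gfra4 on chromosome 2 from 131039632 to 131043088 (minus). Ret lies on chromosome 6 from 118151745 to 118197718 on the minus strand and Ntrk2 on chromosome 13 from 58806569 to 59133970 on the plus strand. The counts are sums over the exons of each gene.

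The first comparison asked what the αGlu ASO changed, and the 2 genes that moved were a ligand and a neurotrophin receptor. Taken over both treatments, 12 libraries against 12, Gdnf and Ngfr fell in αGlu cells and the other 8 genes did not pass the test. Gdnf and Ngfr, 2 of 10, were called at an adjusted p below 0.05 (edgeR quasi-likelihood test, Benjamini-Hochberg over all 15916 genes), where 0.239% of the tested genes were called and 0.182% were called lower. The study itself names both as lower with the αGlu ASO in PA, from these same data. The 10 genes were picked with earlier results known, so this share is no test of the family. The median log2 fold change was -0.34 over the 10 genes and -0.0031 over all genes tested.

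Gdnf, the ligand of GFRα1 and RET, was scarce in every library. In Ctr BSA it had 3 to 146 counts (lowest 0.138, median 0.925, highest 5.16 CPM) and in αGlu BSA 0 to 25 counts (0, 0.170 and 0.986 CPM). In Ctr PA it had 25 to 86 counts (0.992, 1.39 and 3.41 CPM) and in αGlu PA 1 to 15 counts (0.0403, 0.204 and 0.496 CPM). All 6 Ctr PA libraries were thus above all 6 αGlu PA libraries, a separation that 0.163% of genes showed in that direction. In BSA the groups overlapped, through the Ctr library S17, with 3 counts, and the αGlu library S14, with 25.

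The fitted log2 fold change of Gdnf was -2.62 (SE 0.49, 95% interval -3.63 to -1.61, adjusted p = 0.0161) over both treatments. Fitted over both batches, its size hardly differed between treatments, at -2.69 (SE 0.69, adjusted p = 0.446) in BSA and -2.55 (SE 0.70, adjusted p = 0.443) in PA. Neither passed on its own. Within batches, the value over both treatments was -2.95 (SE 0.72) in batch 1 and -2.63 (SE 0.66) in batch 2. By treatment the batches were less alike. Batch 1 gave -4.13 (SE 1.09) in BSA and -1.77 (SE 0.95) in PA. Batch 2 gave -1.85 (SE 0.89) in BSA and -3.41 (SE 0.98) in PA.

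Ngfr, which encodes p75, varied widely between libraries. Its lowest, median and highest levels were 0.735, 8.02 and 43.0 CPM in Ctr BSA (16 to 1217 counts) and 0.811, 1.04 and 10.3 CPM in αGlu BSA (23 to 262 counts). In PA they were 2.30, 11 and 29.7 CPM in Ctr cells (65 to 749 counts) and 0.251, 1.06 and 3.39 CPM in αGlu cells (7 to 111 counts). The PA groups overlapped only by αGlu library S4, at 3.39 CPM, which exceeded Ctr library S3. In BSA the Ctr library S17, at 0.735 CPM, lay below all 6 αGlu libraries, and αGlu libraries S14 and S22 lay among the Ctr libraries.

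Over both treatments Ngfr fell by 2.73 on the log2 scale (SE 0.54, 95% interval -3.84 to -1.62, adjusted p = 0.0184). The change was -2.57 (SE 0.75, adjusted p = 0.626) in BSA and -2.90 (SE 0.80, adjusted p = 0.443) in PA. It was -2.97 (SE 0.76) in batch 1 and -2.65 (SE 0.71) in batch 2, over both treatments. By treatment, batch 1 gave -4.10 (SE 1.11) in BSA and -1.83 (SE 1.05) in PA. Batch 2 gave -1.41 (SE 0.93) in BSA and -3.89 (SE 1.08) in PA. The αGlu effect in PA did not differ detectably between batches for Ngfr (batch 2 minus batch 1, -2.06, 95% interval -5.15 to 1.04) or Gdnf (-1.63, 95% interval -4.46 to 1.2), and these intervals are wide.

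Within Ctr BSA, the libraries S9 and S21 held the highest counts of both genes, 86 and 146 of Gdnf and 809 and 1217 of Ngfr. Without S9 the call on Ngfr was lost (log2 fold change -2.40, adjusted p = 0.0502), and likewise without S21 (-2.59, adjusted p = 0.0543), while Gdnf kept its call each time (adjusted p = 0.0400 and 0.0469). With both libraries left out, an alternative chosen after the data were seen, Gdnf was at -1.91 (adjusted p = 0.187) and Ngfr at -2.03 (adjusted p = 0.254), and neither passed.

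Artn, the ligand of GFRα3, leaned the same way without passing the test. It had 4 to 39 counts per library, and its group medians were 0.665 CPM in Ctr BSA against 0.323 in αGlu BSA, and 0.813 in Ctr PA against 0.388 in αGlu PA. All αGlu groups overlapped with their controls. The difference over both treatments was -0.90 on the log2 scale (SE 0.27, unadjusted p = 0.00270, adjusted p = 0.324). Nrtn, the GFRα2 ligand, showed 0.02 (SE 0.16, 95% interval -0.30 to 0.34) and so no difference of the size seen for Gdnf.

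Among the co-receptors, Gfra1, the partner of GDNF, had medians of 5.09 CPM in Ctr BSA against 4.52 in αGlu BSA, and 5.16 in Ctr PA against 4.09 in αGlu PA, with overlap in both comparisons. Its difference was -0.48 (SE 0.18, unadjusted p = 0.0125, adjusted p = 0.864) over both treatments. Its highest level, 11.2 CPM, was in Ctr BSA library S21, and without that library the difference was -0.31.

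Gfra2, the partner of neurturin, was at 0 to 50 counts per library, and the pooled difference of -1.66 (SE 0.58, adjusted p = 0.689) did not pass. In batch 2 the 3 αGlu PA libraries had 0 counts while the 3 Ctr PA libraries had 12, 21 and 14. In batch 1 the αGlu PA libraries had 4, 7 and 6 counts against 6, 6 and 8 in Ctr PA, so the batches did not look alike. Gfra2 was the 1 of 10 genes past the study's threshold for that difference between batches, which 1.06% of tested genes passed. The test of that difference between batches gave an unadjusted p of 0.00833 and an adjusted p of 1.00, and a fitted fold against counts of 0 is no measure of its size.

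Gfra3 and Gfra4, the partners of artemin and persephin, gave -0.06 (SE 0.08, 95% interval -0.23 to 0.11) and -0.19 (SE 0.36, 95% interval -0.93 to 0.54) over both treatments. The receptor kinases were the most tightly measured genes: Ret gave 0.09 (SE 0.04, 95% interval -0.00 to 0.18, unadjusted p = 0.0536) and Ntrk2 0.05 (SE 0.04, 95% interval -0.03 to 0.14). A change of the size of that of Gdnf or Ngfr lay far outside these intervals for both kinases, for Gfra3 and for Nrtn.

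**Figure D2:**
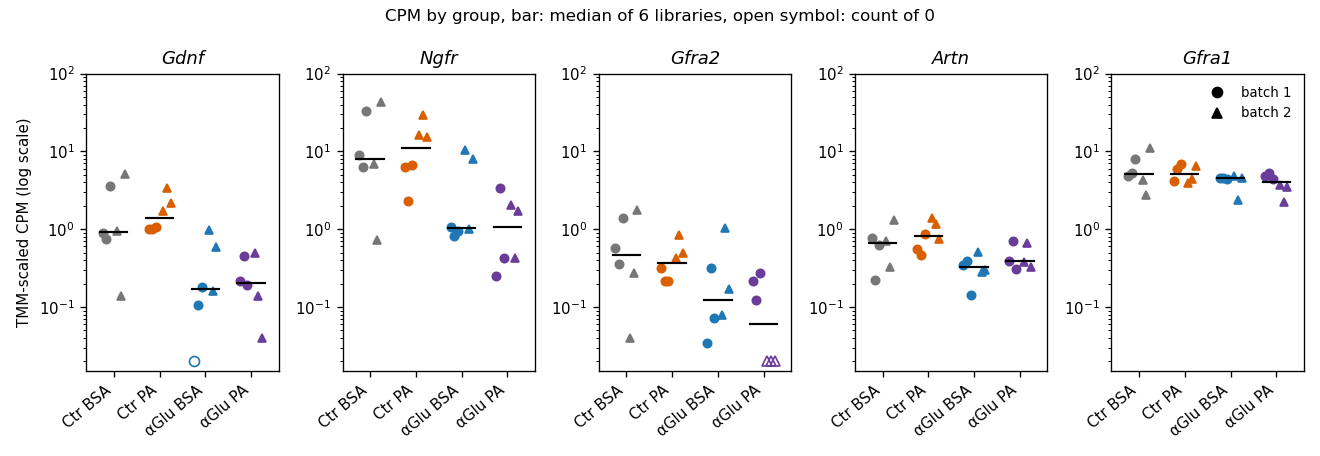
CPM (log axis) of Gdnf, Ngfr, Gfra2, Artn and Gfra1 in each library, by group, with circles for batch 1, triangles for batch 2, bars at the median of 6 libraries and open symbols for a count of 0. In PA all 6 αGlu libraries of Gdnf, at most 0.496 CPM, sit below all 6 Ctr libraries, at least 0.992 CPM, and in BSA the Ctr library S17 sits among the αGlu libraries for Gdnf and below them for Ngfr.

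By treatment, 0 of 10 genes were called for αGlu against Ctr in BSA and 0 of 10 in PA with edgeR, as with DESeq2, and among all genes tested edgeR called 0% in both. At an unadjusted p below 0.05 there were 4 of 10 in BSA (Gdnf, Ngfr, Artn and Gfra1, background 2.9%) and 4 of 10 in PA (Gdnf, Ngfr, Artn and Gfra2, background 3.38%). The study's own threshold is more than 2-fold at p under 0.05. Its p is taken here as unadjusted, which the study does not state. The study reports more genes past it in BSA and in PA than passed here. That threshold was met by Gdnf and Ngfr in BSA (background 0.785%). In PA Gdnf, Ngfr and Gfra2 met it (background 0.942%). All were lower in αGlu cells. Over both treatments the same 3 genes met it (background 0.735%). For Gdnf and Ngfr in PA this repeats a result that the study reports from these data.

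The batches differed in where the separation was cleanest. In batch 1, the 3 αGlu BSA libraries lay below the 3 Ctr BSA libraries for 5 of 10 genes, Gdnf, Gfra1, Gfra2, Gfra4 and Ngfr, against 3.91% of tested genes. In batch 2 the same count held for PA, with Gdnf, Artn, Gfra1, Gfra2 and Ngfr lower in every αGlu library, against 4.66% of tested genes. Of the other 2 settings, BSA in batch 2 separated 0 of 10 genes downwards (3.21% of tested genes) and PA in batch 1 separated Gdnf alone (3.77%). Gdnf and Ngfr, which the study already reports as lower, are part of these counts, so the shares are no test of the family.

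**Figure D3:**
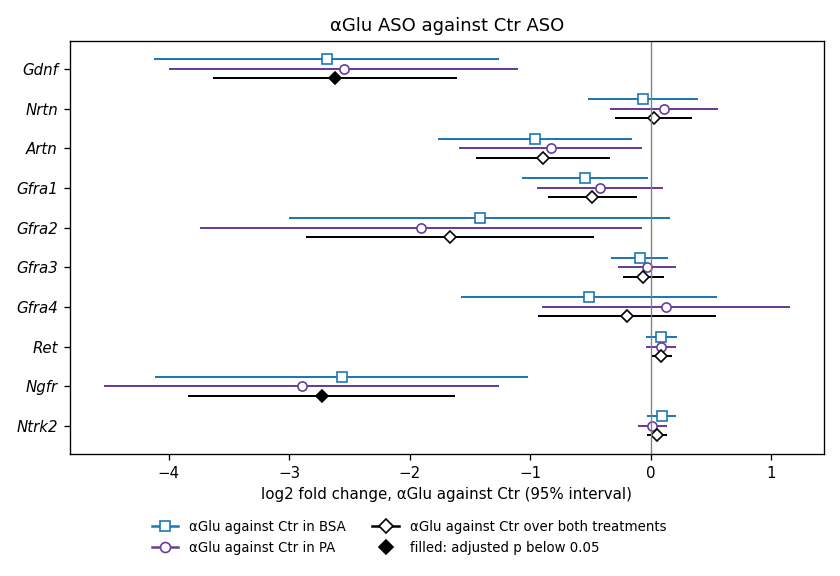
Log2 fold change of αGlu against Ctr with its 95% interval for the 10 genes, in BSA (squares), in PA (circles) and over both treatments (diamonds), filled where the adjusted p was below 0.05. The filled symbols are Gdnf at -2.62 and Ngfr at -2.73, and the narrowest intervals around 0 belong to Ret and Ntrk2.

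Markers of Schwann cells and enteric glia moved with Gdnf and Ngfr. Of 18 listed genes 16 were tested, and 6 fell over both treatments at an adjusted p below 0.05 and 0 rose. Over the 16 genes the log2 fold change had a median of -1.05, beside -0.0031 over all genes tested. The 6 were Sox10 (-2.98), Foxd3 (-3.09), S100b (-2.48), Gfap (-3.88), Cdh19 (-3.24) and Gap43 (-1.89). The study itself names Foxd3, S100b, Gfap and Gap43 as lower with the αGlu ASO in PA, from these same data. It also names Cadm3 and Gpm6b of the list. The list was written with those results known, so its count of lower genes is not independent of them. The list summed to 189 to 335 CPM in Ctr BSA and 180 to 242 in αGlu BSA, and to 191 to 253 in Ctr PA and 163 to 226 in αGlu PA. The most abundant gene of the list was Mbp, a myelin gene, at 103 to 134 CPM in single libraries.

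The glial transcription factors and adhesion genes of the list were much scarcer. Sox10, the defining factor of the lineage, was at 0.184 to 10.1 CPM in Ctr BSA and 0.0794 to 3.35 in αGlu BSA, and at 0.638 to 8.50 in Ctr PA and 0 to 0.887 in αGlu PA. In αGlu PA, 6 of the 18 genes had no count in at least 1 library (Gfap in 4, Foxd3 in 3, Fabp7 in 2, and Sox10, Cdh19 and Cadm3 in 1 each), compared with 4 in αGlu BSA, 2 in Ctr BSA and 1 in Ctr PA. The part of these cells in the differences of Gdnf and Ngfr was not tested. Of other lists, over both treatments edgeR called 0 of 11 fibroblast, 0 of 10 macrophage, 0 of 8 acinar and 0 of 10 beta-cell markers. At an unadjusted p below 0.05 there were 1, 0, 0 and 1. Over all genes tested 0.239% were called, so a count of 0 in lists this short does not show that these cells were unchanged. Called lower were 2 of 9 neuronal markers, among them Hand2, which the study also names as lower. By treatment 0 of 10 macrophage markers were called, with fitted values of 9 of 10 below 0 in BSA (median log2 fold change -0.94, 3 past the study's threshold) and of 10 of 10 above 0 in PA (median 0.82, 2 past it).

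Across libraries, after the mean of each group within each batch was removed, the 3 genes most like Ngfr among 15317 were Cdh19 (Pearson r = 0.956), Foxd3 (r = 0.933) and Sox10 (r = 0.928), all on the glial list. Those most like Gdnf were S100b (r = 0.850), Serpina3n (r = 0.837) and Grik3 (r = 0.835), of which S100b is on that list. For Gfra1 they were Chl1 (r = 0.899), Grik3 (r = 0.860) and Dscc1 (r = 0.841). Foxd3 also came second for Artn (r = 0.733). These values describe 24 libraries, in which the genes compared share each library's depth and cells, and they carry no test. Differences between animals were not removed. As the methods describe all groups of a replicate as cells of the same animal, the 24 libraries may not be independent.

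Some of the 10 genes were alike by the same measure. Gdnf, Gfra1 and Ngfr varied together, with r = 0.812 for Gdnf and Ngfr, 0.793 for Gfra1 and Ngfr and 0.775 for Gdnf and Gfra1, and 0.649, 0.617 and 0.546 once the 2 libraries farthest from the median were left out. Ret and Ntrk2 varied together with r = 0.736, or 0.640 without 2 libraries. Against the summed glial list, Ret was at r = -0.730 and Ngfr at r = 0.602. That sum, 163 to 335 CPM, held 103 to 134 CPM of Mbp and at most 10.1 CPM of Sox10. The level of that sum was thus set mainly by its most abundant genes and not by the scarce glial ones. Erbb3 of the same list ran more widely than Mbp, from 8.70 CPM in αGlu PA to 68.5 CPM in Ctr BSA. Which genes set the variation of the sum was not tested. Against the summed beta-cell markers Ret was at r = 0.688 and Ntrk2 at r = 0.635. The genes most like Ret were Numbl (r = 0.935), Dnaja4 (r = 0.898) and Marchf4 (r = 0.885), and those most like Ntrk2 were Cln6 (r = 0.902), B3galt5 (r = 0.889) and Vmac (r = 0.888).

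**Figure D4:**
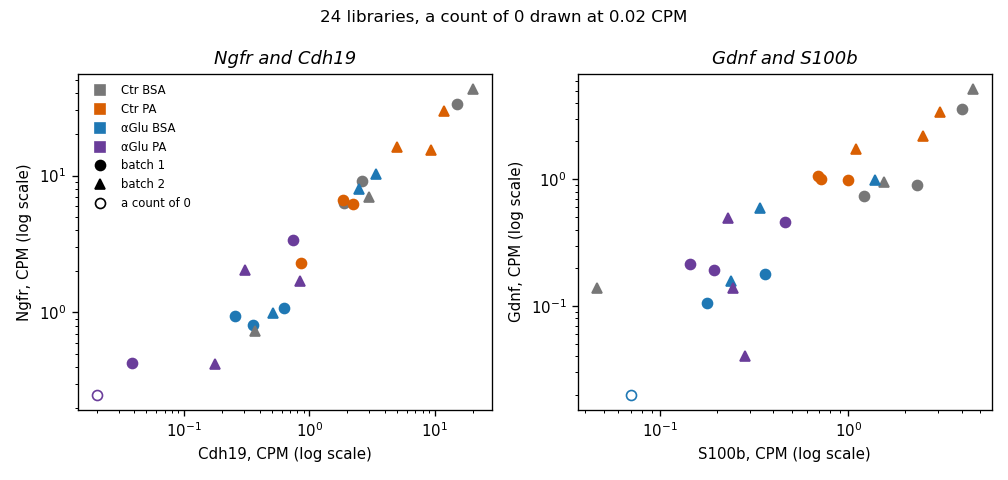
CPM of Ngfr against Cdh19 and of Gdnf against S100b, both axes on a log scale, 1 point per library, coloured by group with circles for batch 1 and triangles for batch 2; a count of 0 is drawn as an open symbol at 0.02 CPM. The Ctr BSA libraries S9 and S21, with 33.4 and 43.0 CPM of Ngfr, sit at the upper right of both panels, and the Ctr BSA library with 0.735 CPM of Ngfr sits apart from the other Ctr libraries.

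The second comparison asked how the genes answered to palmitate, and here a kinase and a co-receptor moved in opposite directions. Ret rose and Gfra3 fell in PA, in both Ctr and αGlu cells, and the other 8 genes did not pass. These 2 of 10 stood against a background of 30% of tested genes called in Ctr cells, 28.5% in αGlu cells and 45.4% over both ASOs, and a share of this size is below the background. These comparisons share libraries with those between ASOs, Ctr BSA and Ctr PA serving in both.

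Ret, the shared signalling receptor of the family, had lowest, median and highest levels of 131, 166 and 186 CPM in Ctr BSA and of 164, 194 and 198 CPM in Ctr PA. In αGlu cells they were 143, 175 and 190 CPM in BSA and 177, 202 and 213 CPM in PA. The groups overlapped over both batches, but within each batch, and with either ASO, the 3 PA libraries lay above the 3 BSA libraries, as they did for 5.1% of tested genes. The log2 fold change was 0.22 (SE 0.06, adjusted p = 0.00718) in Ctr cells, 0.22 (SE 0.06, adjusted p = 0.00796) in αGlu cells and 0.22 (SE 0.04, adjusted p = 1.72e-04) over both, a rise of 1.17-fold.

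The rise of Ret was 0.32 (SE 0.06) in batch 1 and 0.13 (SE 0.06) in batch 2. The test of that difference did not pass after adjustment (-0.19, SE 0.08, unadjusted p = 0.0302, adjusted p = 0.756). Without Ctr BSA libraries S9 and S21, where Ret was at its group's lowest level and at 170 CPM, the rise in Ctr cells was 0.17 (adjusted p = 0.0525).

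Gfra3, the artemin co-receptor, had lowest, median and highest levels of 11.1, 14 and 15.9 CPM in Ctr BSA and 7.17, 9.15 and 12.8 CPM in Ctr PA. In αGlu cells they were 9.97, 12.7 and 14.6 CPM in BSA and 7.25, 9.06 and 10.7 CPM in PA. Only single libraries overlapped, S19 of Ctr PA and S10 of αGlu BSA. Within each batch and with either ASO, PA lay below BSA in all 3 libraries, as for 3.91% of tested genes.

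Gfra3 fell by 0.54 on the log2 scale in Ctr cells (SE 0.12, adjusted p = 0.00100) and by 0.48 in αGlu cells (SE 0.12, adjusted p = 0.00290). Over both ASOs it fell by 0.51 (SE 0.08, adjusted p = 1.83e-05), with -0.50 (SE 0.12) in batch 1 and -0.54 (SE 0.12) in batch 2. Neither Ret nor Gfra3 reached the 2-fold threshold of the study, which 5.91% of tested genes met in Ctr cells, 5.57% in αGlu cells and 5.75% over both ASOs.

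The ligand of GFRα3 did not move with its receptor: Artn gave 0.45 (SE 0.27, 95% interval -0.10 to 1.00) over both ASOs. Nrtn gave 0.05 (SE 0.16), Gfra1 -0.15 (SE 0.18), Gfra4 0.25 (SE 0.36) and Gfra2 -1.11 (SE 0.58, unadjusted p = 0.0692). For Gdnf (-0.20, 95% interval -1.21 to 0.80) and Ngfr (-0.89, 95% interval -1.98 to 0.20) the intervals do not exclude changes of about 2-fold. Ntrk2 gave -0.02 (SE 0.04, 95% interval -0.10 to 0.06), which leaves little room for a change.

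Markers of some other cells fell in PA beside Gfra3. In Ctr cells 9 of 11 fibroblast and stellate, 8 of 10 macrophage and 6 of 8 acinar markers were called lower and 0 higher. In αGlu cells 7, 1 and 5 were called lower. Of other lists in Ctr cells, 0 of 7 endothelial and 1 of 16 glial markers were lower. So were 3 of 7 ductal and 2 of 3 mesothelial markers, and in these lists 0 were higher. Of 9 neuronal markers 3 were lower and 2 higher. Over all genes tested, 30% were called in Ctr cells and 28.5% in αGlu cells. The summed fibroblast markers were at 186 to 715 CPM in Ctr BSA and 16.4 to 103 CPM in Ctr PA, and at 115 to 1386 CPM in αGlu BSA and 13.9 to 203 CPM in αGlu PA. Of the beta-cell markers, 3 of 10 rose and 3 fell in Ctr cells. The part of these cells in the changes of Ret and Gfra3 was not tested.

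**Figure D5:**
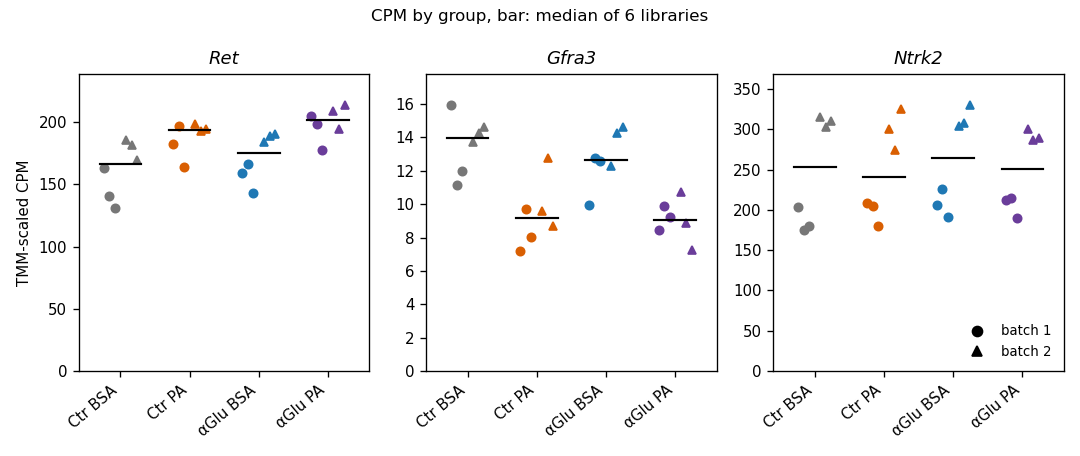
CPM of Ret, Gfra3 and Ntrk2 by group on axes that start at 0, with circles for batch 1, triangles for batch 2 and bars at the median of 6 libraries. Within each batch the PA libraries of Ret lie above and those of Gfra3 below the BSA libraries with the same ASO, and the batches of Ntrk2 do not overlap (174 to 226 against 274 to 329 CPM).

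The third question was whether the αGlu ASO changed the response to palmitate. With edgeR 0 of 10 genes were called for this interaction, 0 of 10 passed at an unadjusted p below 0.05, and DESeq2 called 0; over all genes tested 0% were called and 2.09% had an unadjusted p below 0.05. The difference between the responses was -0.00 for Ret (95% interval -0.18 to 0.17) and 0.06 for Gfra3 (95% interval -0.28 to 0.40). For the scarce genes it was poorly measured, with 0.14 (95% interval -1.91 to 2.19) for Gdnf and -0.33 (95% interval -2.58 to 1.92) for Ngfr.

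Ntrk2, or TrkB, was set apart by batch rather than by treatment. Its 12 libraries of batch 1 lay between 174 and 226 CPM and its 12 of batch 2 between 274 and 329 CPM. It was the only one of the 10 genes without overlap between batches, where 3.23% of tested genes separated upwards. The log2 difference, batch 2 against batch 1, was 0.61 (SE 0.04, adjusted p = 1.49e-11). Counts per gene do not tell the full-length kinase form of TrkB from the truncated form that lacks the kinase.

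Ret was 0.19 higher in batch 2 (SE 0.04, adjusted p = 5.84e-04) and Nrtn fell by 0.39 on the log2 scale (SE 0.16, adjusted p = 0.0392, up to 0.0922 and lost in 11 of 24 omissions of 1 library), against 51.5% of all tested genes called between batches. Ngfr was higher by 1.19 (SE 0.54, adjusted p = 0.0709), past the study's 2-fold threshold (background 6.38%) but not called. The acinar markers moved with the batches, 8 of 8 lower in batch 2, with sums of 3040 to 22173 CPM in batch 1 and 221 to 600 CPM in batch 2. All 10 beta-cell markers were called higher in batch 2, with sums of 110426 to 152138 CPM against 84084 to 134035 CPM. The part of either in the batch differences of Ntrk2 and Ret was not tested.

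The rest of the pathway was read from a list of 56 further genes, of which 49 were tested. For αGlu against Ctr, edgeR called 0% of all genes tested in BSA, 0% in PA and 0.239% over both treatments. An unadjusted p below 0.05 was found for 2.9% of all genes in BSA and 3.38% in PA. Of the list, 0 of 49 were called in BSA, in PA or over both treatments, and 1, 0 and 2 had an unadjusted p below 0.05. These were the adaptor Dok4 in BSA (-0.42, SE 0.13) and, over both treatments, the phosphatase Ptpn11 (0.07, SE 0.03) and the sorting receptor Sort1 (0.09, SE 0.04), each with an adjusted p above 0.9. Transcripts known to follow RET or TRK signalling, such as Etv5, Spry2 and Dusp6, were among those not called. Of 10 such transcripts, the fitted values were below 0 for 7 in BSA, 9 in PA and 9 over both treatments. Their median log2 fold changes were -0.12, -0.06 and -0.09.

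In PA many genes of the list were called. In Ctr cells 11 were higher and 11 lower, and in αGlu cells 12 were higher and 6 lower, beside 30% and 28.5% of all genes tested. Those with the smallest p in Ctr cells were Irak1, a kinase downstream of p75 (0.27, SE 0.04), the heparan sulfate receptor Sdc3 (-0.53, SE 0.08) and the ETS factor Etv5 (0.50, SE 0.08). In αGlu cells Irak1 (0.33, SE 0.04) and Etv5 (0.62, SE 0.08) were again among them.

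Ligands of Ntrk2 and Ngfr are named here for that role, after their values were seen. Bdnf fell by 1.14 in Ctr cells on PA (SE 0.30, adjusted p = 0.00596) and by 0.89 in αGlu cells (SE 0.30, adjusted p = 0.0275). Ntf5, which encodes NT-4, fell by 1.77 in Ctr cells (SE 0.55, adjusted p = 0.0169). Persephin (Pspn), the GFRα4 ligand, had counts in 1 of 24 libraries and Ntf3 in 9, and Gfral, a GFRα-like receptor, in 0.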

How the data were processed

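Stranded mRNA libraries of dispersed mouse islet cells were analysed, 6 per group and 3 per group in each of 2 batches. The authors' table came from the QIAGEN analysis portal for RNA-seq and holds, per gene and library, raw counts of reads on exons and TPM values. The build is GRCm38 per the labels. Aligner, annotation release and filters were not given in the sources used here. Empty cells were read as a count of 0, and 1 row without a gene name, with 0 counts, was left out. Gene positions and transcripts were taken from GENCODE M21, promoters from RefSeq. Promoters of Ret, Gfra2 and Gfra3 are not shown.

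Counts were scaled by TMM, filtered by filterByExpr (minimum 10) and fitted over all 24 libraries with group and batch terms by edgeR 4.0.16 in R 4.3.3 (two-sided quasi-likelihood test, Benjamini-Hochberg over 15916 genes). Effects within a batch came from a model with a term for each group in each batch. Genes were called at an adjusted p below 0.05, and the threshold of the study was counted beside it. The p of that threshold was taken as unadjusted, which the study does not state. The tested genes held 99.95% of all counts. Intervals are 95%. Log2 CPM used a prior count of 2. The tests were run on simulated data first. DESeq2 1.42.0, 2 other scalings, 2 other filters, no batch term, each batch, the compared groups alone and the omission of each library were the alternatives. All 10 genes were named, with at most 3 pathway genes per comparison by smallest p and the 3 genes most like each member. Members and lists were chosen with earlier results of these data known. The groups of a replicate are described as cells of 1 animal, but the labels do not link libraries, so the fits hold no animal term and p-values measure the spread between these libraries. Some pathway genes are not reported here.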

Additional observations from a re-analysis of the deposited data

Results flagged for a closer look

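For the 10 genes in the 4 groups, 40 sets of 6 log2 CPM values were examined for a library that stands far from the others, and chance flags about 1 set in 20. Gfra1 was lowest in αGlu BSA library S18, at 2.38 CPM, whereas the next library of the group was at 4.40 CPM. Gfra4 had 0 CPM, a count of 0, in Ctr PA library S11, while the other 5 libraries of that group had 10 to 16 counts.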

How the results depend on the processing

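No paired analysis was run, although the groups of a replicate are described as cells of the same animal. The library numbers differ between all groups, and the labels do not link libraries of the same animal. The numbers repeat the 4 groups in a fixed order, but pairing by that order would be an assumption. A block by animal was thus not fitted, and what it would change was not tested. Over 25 single-gene results and 833 recomputed values, 779 kept their direction and call, 40 lost the call, 14 gained one and 0 changed sign. The number of the 10 genes called changed as follows. With the study's threshold (fold change above 2, p below 0.05 taken as unadjusted) it was 0 for PA in Ctr cells, in αGlu cells and over both ASOs. It was 2 for αGlu in BSA, 3 for αGlu in PA, 1 for the batches and 1 for the αGlu effect in PA between batches. Without a batch term, 1 gene was called for PA in Ctr and 1 in αGlu cells (Ret lost, adjusted p = 0.0881 and 0.0937) and 0 for αGlu over both treatments (Gdnf 0.0844, Ngfr 0.126). Batch 1 alone gave 1, 0 and 0 for these comparisons, and batch 2 alone 0, 1 and 0, each with fewer libraries. Without Ctr BSA replicates 9 and 21, chosen after seeing the data, it was 1 for PA in Ctr cells and 0 for αGlu over both treatments. With 1 library left out, the count ran from 1 to 2 for αGlu over both treatments, from 2 to 3 for PA over both ASOs and from 2 to 5 between batches, with 5 without Ctr BSA replicate 9, and Nrtn lost its batch call in 11 of 24 omissions. No other count moved beyond 1.5 times. Gfra2 gave no value under the stricter filter. Gdnf, Gfra2, Gfra4 and Artn had fewer than 10 counts in at least 1 library, which limits the precision of their values.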

Other observations

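The same measure of likeness gave other partners for the genes that did not differ between ASOs. Nrtn varied most closely with H1f10 (r = 0.899), Gnptg (r = 0.893) and Mlf2 (r = 0.885), and Gfra3 with Gbp5 (r = 0.795), Dffa (r = 0.792) and Stmn3 (r = 0.772). Gfra2 varied most closely with Lgals3 (r = 0.765), Mxra8 (r = 0.762) and Trim47 (r = 0.743), Gfra4 with E130208F15Rik (r = 0.799), Gm45250 (r = 0.779) and Ptger1 (r = 0.775), and Artn with 1700086O06Rik (r = 0.767) ahead of Foxd3 and Plk5 (r = 0.726). Ret and Ntrk2 varied against the summed acinar markers, with r = -0.770 and r = -0.846. All are over 24 libraries, after the mean of each group within each batch was removed, and carry no test. Differences between animals were not removed, so the 24 libraries may not be independent.

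Between batches 31 of 49 further pathway genes were called, 16 higher and 15 lower in batch 2, beside 51.5% of all genes tested. Irak1 was higher by 0.36 (SE 0.03), Src fell by 0.69 on the log2 scale and Gab1 by 1.24.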
